A study of Saccharomyces cerevisiae with 12 samples.

Results

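The 25S rRNA of the budding yeast Saccharomyces cerevisiae carries 6 nucleotides whose base, rather than whose ribose, is methylated by a dedicated protein enzyme. They are 25S A645, 25S A2142, 25S C2278, 25S U2634, 25S U2843 and 25S C2870. The 6 nucleotides were taken by their known positions out of the 3396 nucleotides of 25S rRNA and the 5196 of 18S and 25S rRNA together. No measured value entered this rule, but earlier results of these data were known when it was chosen. They were read in all 12 libraries of a RiboMeth-seq experiment, in which total RNA is broken by alkali and the ends of short fragments are counted at each nucleotide. The experiment was designed to ask whether the RNA helicase Dbp7, a factor in assembly of the large ribosomal subunit, affects rRNA methylation.

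The libraries came from 4 groups of 3 biological replicates, all grown exponentially. Δdbp7 + EV was a strain in which DBP7 is deleted, carrying an empty plasmid. Δdbp7 + Dbp7DQGD cells carried the same deletion and a plasmid encoding a catalytically inactive Dbp7, and in Δdbp7 + Dbp7WT cells the plasmid encoded the wild-type protein. WT + EV was the wild-type strain with the empty plasmid. The 3 groups other than WT + EV share the genomic deletion, and both Dbp7 proteins were made from a low-copy plasmid under the promoter of DBP7 itself. Strains without active Dbp7 grow more slowly, so activity and growth rate cannot be told apart in any comparison between these groups.

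Base methylations of rRNA are made by stand-alone enzymes, whereas most 2′-O-methylations are placed by box C/D snoRNPs that find their target through a guide RNA. Rrp8 makes the m1A at A645, Bmt2 the m1A at A2142, Rcm1 the m5C at C2278, Bmt5 the m3U at U2634, Bmt6 the m3U at U2843 and Nop2 the m5C at C2870. In m1A and m3U the methyl group sits on the face of the base that forms Watson-Crick pairs, and both are known to hinder reverse transcriptases, whereas m5C leaves that face free. A645 lies in domain II of the 25S rRNA, A2142 and C2278 in domain IV, and U2634, U2843 and C2870 in domain V, which forms the peptidyl transferase centre.

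The sequences around the 6 nucleotides are shown because the read-end values below are set against exactly these neighbours. Each run spans 15 nucleotides on either side, reads 5′ to 3′, was taken from the nucleotide column of the deposited tables (gene RDN25-1, chromosome XII) and carries the methylated base as its only capital.
25S A645 (m1A645), nucleotides 630 to 660: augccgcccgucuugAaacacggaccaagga
25S A2142 (m1A2142), nucleotides 2127 to 2157: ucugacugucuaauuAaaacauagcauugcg
25S C2278 (m5C2278), nucleotides 2263 to 2293: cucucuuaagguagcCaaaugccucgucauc
25S U2634 (m3U2634), nucleotides 2619 to 2649: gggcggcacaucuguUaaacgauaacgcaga
25S U2843 (m3U2843), nucleotides 2828 to 2858: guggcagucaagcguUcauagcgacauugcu
25S C2870 (m5C2870), nucleotides 2855 to 2885: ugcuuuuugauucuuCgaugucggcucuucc
A645, A2142, C2278 and U2634 are directly followed by AA in these runs. That is 4 of the 6 nucleotides (66.7%), against 279 of the 3394 nucleotides of 25S rRNA that have 2 successors (8.22%), which is a description of the sequences and was not tested. The last 2 runs overlap, since U2843 and C2870 are 27 nucleotides apart, so their coverage values share fragments.

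The 25S rRNA received 1349614 to 2636178 5′ read ends per library where active Dbp7 was missing (the Δdbp7 + EV and Δdbp7 + Dbp7DQGD groups) and 2587289 to 7236077 where it was present (the Δdbp7 + Dbp7WT and WT + EV groups). Depth thus moves with the presence of active Dbp7, and its part in the comparisons was not tested. At the 6 nucleotides the libraries held 156 to 3129 5′ ends, 164 to 2530 3′ ends and 7157 to 57951 spanning fragments. Δdbp7 + EV replicate 2 stood apart from the other libraries at A2142, U2634 and U2843 and next to C2870, and differences that moved by over 1.5 times without it are also given without it.

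Read ends at a nucleotide were expressed as the log2 ratio of the count to the weighted mean count of the 6 nucleotides on either side, the same flanks that the RiboMeth-seq score uses, after adding 0.5 to both. A 5′ end count on a row stands for a break on the 3′ side of that nucleotide, and a 3′ end count for a fragment that stops there. At the 55 2′-O-methylated sites of the authors' overview the median ratio was -4.70 for 5′ ends and -3.77 for 3′ ends, which shows how a blocked break appears in these tables. None of the 6 base-methylated nucleotides came near these values. Their mean 5′ end ratio ran from -0.36 to 1.09 and their mean 3′ end ratio from -0.55 to 0.46.

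Both m1A nucleotides had fewer 3′ ends than their flanks, but only A2142 did so for both kinds of end in every library. At A2142 the 5′ end ratio was -0.34, -0.86 and -0.36 in Δdbp7 + EV, -0.31, -0.08 and -0.32 in Δdbp7 + Dbp7DQGD, -0.31, -0.20 and -0.34 in Δdbp7 + Dbp7WT and -0.36, -0.26 and -0.55 in WT + EV. The 3′ end ratio there averaged -0.55 ± 0.26 (SD, n = 12) and was lowest, at -1.31, in the same Δdbp7 + EV replicate 2. The values of A2142 thus lay moderately below the flanks in all 4 groups, at 0.781 of the flanking level for 5′ ends and 0.684 for 3′ ends. At A645 the 5′ end ratio was 0.08 ± 0.11 (SD, n = 12), with 4 libraries below 0. Its 3′ end ratio was -0.11, -0.47 and -0.25 in Δdbp7 + EV, -0.55, -1.11 and -0.35 in Δdbp7 + Dbp7DQGD, -0.44, -1.13 and -0.36 in Δdbp7 + Dbp7WT and 0.07, -0.39 and -0.44 in WT + EV. It was below 0 in 11 libraries, and replicate 2 of both plasmid groups was lowest. The mean 5′ end ratio of A645 turned to -0.14 when 2′-O-methylated neighbours were left out of the flanks.

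For reference, 29.6% of all 18S and 25S nucleotides lay below 0 in 12 of 12 libraries for 5′ ends and 18.4% for 3′ ends. Of the 6 nucleotides, 1 did so for 5′ ends and 1 for 3′ ends, A2142 in both cases, which is near those shares.

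The m3U nucleotides were close to their flanks. U2634 had a 5′ end ratio of -0.03 ± 0.08 and a 3′ end ratio of 0.12 ± 0.36 (SD, n = 12 each). Of the uridines neither in the overview nor on the lists of base-modified nucleotides used here, 38.9% had fewer 5′ ends relative to their flanks. Pseudouridines were not taken out of that set. U2843 had a 5′ end ratio of 0.29 ± 0.25 and a 3′ end ratio of -0.32 ± 0.45. The spread of U2843 came largely from 1 library: Δdbp7 + EV replicate 2 was at 1.06 for 5′ ends, while the other 11 libraries lay between 0.08 and 0.35.

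The m5C nucleotides had more 5′ ends than their flanks in every library. At C2870 the 5′ end ratio was 1.11, 1.58 and 0.87 in Δdbp7 + EV, 1.13, 1.09 and 0.81 in Δdbp7 + Dbp7DQGD, 1.01, 1.29 and 0.99 in Δdbp7 + Dbp7WT and 1.05, 1.07 and 1.03 in WT + EV. This is 2.12 times the flanking level on average, and of the 5172 nucleotides ranked from the lowest ratio, C2870 was number 5160. All 4 groups overlapped. Of 994 unmodified cytidines, 99.6% had a lower 5′ end ratio. Part of the flank of C2870 is itself low: A2864, U2865 and U2866, which lie 6 to 4 nucleotides before it, had mean 5′ end ratios of -1.85, -3.02 and -1.92, and U2865 is a known pseudouridine. With 12 unweighted nucleotides on either side as the flank, the ratio of C2870 was 0.78.
C2278 had a 5′ end ratio of 0.44 ± 0.23 (SD, n = 12) and a 3′ end ratio of 0.18 ± 0.19. It is followed at 2 and 3 nucleotides by the 2′-O-methylated A2280 and A2281, whose 5′ end ratios averaged -6.02 and -6.74. Without 2′-O-methylated nucleotides in the flanks, the ratios of C2278 were 0.14 for 5′ ends and -0.10 for 3′ ends.

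The rows next to the 6 nucleotides were also read. The mean 5′ end ratio ran from -0.37 to 0.09 at the nucleotide before and from -0.30 to 0.33 at the nucleotide after. For 3′ ends the means ran from -0.22 to 0.38 before and from -0.70 to 0.07 after. The lowest of them was the 3′ end ratio at the guanosine after C2870, -0.70 ± 0.35 (SD, n = 12), which was below 0 in all 12 libraries and below the mean 3′ end ratio of each methylated nucleotide itself.

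**Figure D1:**
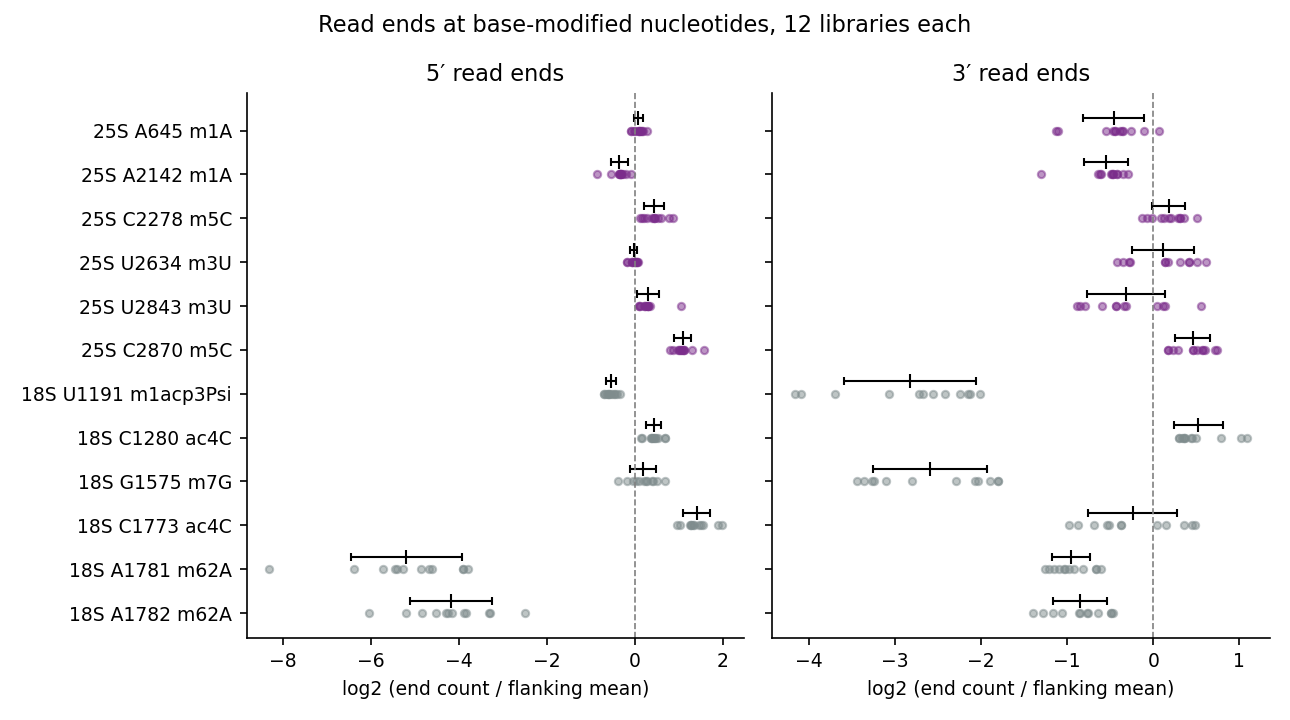
Log2 ratio of the 5′ (left) and 3′ (right) end count to the flanking mean at the 6 base-methylated nucleotides of 25S rRNA (purple) and at 6 base-modified nucleotides of 18S rRNA (grey). Points are libraries, and the bar above each row is the mean with its SD over 12 libraries. The 25S nucleotides lie near 0, with C2870 highest for 5′ ends, whereas 18S U1191 and G1575 are far below 0 for 3′ ends.

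Base-modified nucleotides of the 18S rRNA, read in the same way, included some with far stronger signals. U1191, the hypermodified m1acp3Psi, had a 3′ end ratio of -2.83 ± 0.77 (SD, n = 12), and G1575, an m7G, had -2.59 ± 0.67. Their 5′ end ratios were -0.55 and 0.19, so the deficit was on the 3′ end count. Of the ac4C nucleotides, C1280 had a 5′ end ratio of 0.42, and C1773 had a higher one than all 994 unmodified cytidines. A1781 and A1782, the m62A pair, had 5′ end ratios of -5.19 and -4.18, but fragments that begin after them run into the 3′ end of the 18S rRNA within fewer than 20 nucleotides, the shortest length excised. That end also limits the length of fragments that begin after C1773 or after its downstream flank, and its part in the ratio of C1773 was not tested. No 25S base-methylated nucleotide resembled U1191 or G1575 in its 3′ ends, and no test was made between the lists.

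The RiboMeth-seq score, a fraction from 0 to 1 that the authors computed from both ends to estimate 2′-O-methylation, was also low at these nucleotides. It averaged 0.131 ± 0.0817 at A645, 0.264 ± 0.0954 at A2142, 0.0410 ± 0.0624 at U2634 and 0.0728 ± 0.0773 at U2843 (SD, n = 12 each), and it was 0 in all 12 libraries at C2278 and C2870. The 55 sites of the overview averaged 0.590 to 0.984. The median of the 5117 other nucleotides was 0.0665 and their highest mean 0.821. Of these other nucleotides, 85.2% had a lower mean than A2142, 64.1% than A645, 51.6% than U2843, 41.9% than U2634 and 0% than C2278 or C2870. The highest single value at a base-methylated nucleotide was 0.548, at A2142 in Δdbp7 + EV replicate 2, and the other 11 libraries scored 0.176 to 0.280 there.

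A reverse transcriptase that stops at a base leaves no full-length copy of a fragment containing it, so the fragments spanning each nucleotide were counted as well. Spanning fragments were obtained by accumulating 5′ minus 3′ ends along the rRNA and were divided by their mean at 31 to 60 nucleotides on either side, with 1 added to both. The coverage ratio was lowest at A645. It was -0.93, -0.94 and -1.16 on the log2 scale in Δdbp7 + EV and -0.99, -1.10 and -0.84 in Δdbp7 + Dbp7DQGD. It was -0.77, -1.26 and -0.95 in Δdbp7 + Dbp7WT and -0.71, -0.84 and -1.12 in WT + EV. A645 was therefore spanned by 0.511 times as many fragments as its flanks on average, with the 4 groups overlapping, and 4.17% of unmodified adenosines had a lower mean. It was number 250 of 4956 nucleotides ranked from the lowest.

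The other m1A was less clearly below its flanks. At A2142 the log2 coverage ratio was -0.45, -1.15 and -0.06 in Δdbp7 + EV, -0.38, -0.01 and -0.02 in Δdbp7 + Dbp7DQGD, -0.47, -0.12 and -0.34 in Δdbp7 + Dbp7WT and -0.56, -0.32 and -0.53 in WT + EV. All 12 values were below 0, but 2 of them by no more than 0.02, and they overlapped those of A645 only through Δdbp7 + EV replicate 2. 
The m5C nucleotides averaged -0.27 ± 0.19 at C2278, with 12 of 12 libraries below 0, and -0.35 ± 0.29 at C2870, with 10 of 12 (SD, n = 12 each). At C2278 the log2 coverage ratio was -0.14, -0.28 and -0.12 in Δdbp7 + EV, -0.23, -0.28 and -0.54 in Δdbp7 + Dbp7DQGD, -0.14, -0.43 and -0.70 in Δdbp7 + Dbp7WT and -0.11, -0.16 and -0.14 in WT + EV. The WT + EV libraries lay closest together there. At C2870 the ratio was -0.39, 0.10 and -0.71 in Δdbp7 + EV, 0.04, -0.40 and -0.07 in Δdbp7 + Dbp7DQGD, -0.26, -0.80 and -0.33 in Δdbp7 + Dbp7WT and -0.41, -0.20 and -0.73 in WT + EV. Its groups overlapped, and both values above 0 came from cells without active Dbp7.

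The m3U nucleotides were spanned by slightly more fragments than their flanks, on average 0.16 ± 0.08 at U2634 and 0.13 ± 0.27 at U2843 (SD, n = 12 each), with 1 library below 0 at each. At U2634 the ratio was 0.10, 0.17 and 0.11 in Δdbp7 + EV, 0.24, 0.15 and 0.23 in Δdbp7 + Dbp7DQGD, 0.23, 0.19 and 0.27 in Δdbp7 + Dbp7WT and -0.02, 0.10 and 0.20 in WT + EV. At U2843 it was 0.27, -0.55 and 0.11 in Δdbp7 + EV, 0.20, 0.03 and 0.67 in Δdbp7 + Dbp7DQGD, 0.12, 0.06 and 0.19 in Δdbp7 + Dbp7WT and 0.29, 0.14 and 0.04 in WT + EV. The groups overlapped at both, and the lowest and the highest value at U2843 were both from cells without active Dbp7.
In ascending order the means were those of A645, A2142, C2870, C2278, U2843 and U2634, and A2142, C2870 and C2278 did not differ beyond their spread, nor did U2843 and U2634. The nucleotides with a methyl group on the Watson-Crick face, m1A and m3U, thus lay on both sides of 0. Of all 4956 nucleotides with full flanks, 21.8% were below 0 in 12 of 12 libraries, against 3 of the 6 base-methylated nucleotides.

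**Figure D2:**
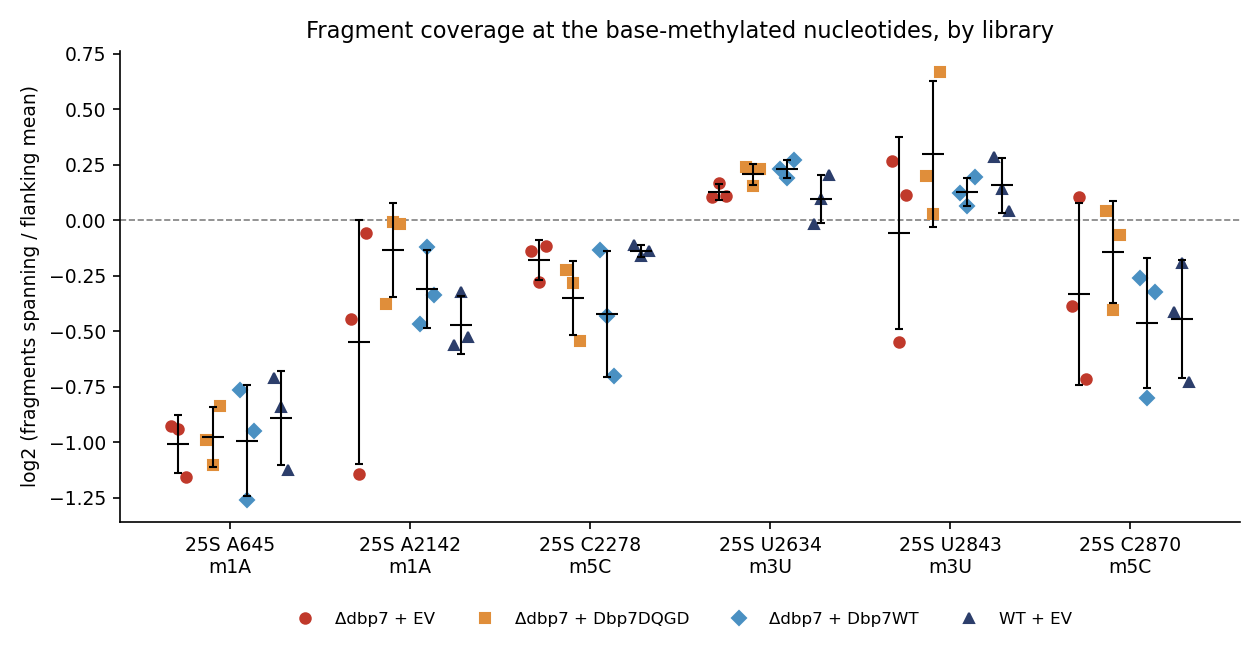
Log2 ratio of fragments spanning each base-methylated nucleotide to the mean 31 to 60 nucleotides away, by group. Points are libraries and black bars the mean with its SD (n = 3). A645 lies between -1.26 and -0.71 in all groups, and Δdbp7 + EV replicate 2 is the low point at A2142 and at U2843.

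Coverage did not reach its lowest point at the methylated base itself in every case. Around A645 the mean ratio was 0.67 at 30 nucleotides before and had its minimum of -1.04 at 10 nucleotides after A645. In single libraries the minimum lay 1 to 16 nucleotides after it. The 2′-O-methylated A649 and C650 lie 4 and 5 nucleotides after A645, with mean 5′ end ratios of -6.15 and -4.54. Their part in the trough was not tested. Around A2142 the minimum was -0.40, at 4 nucleotides after it, and at C2278 and C2870 the minimum of the mean within 30 nucleotides was on the methylated base, within 5 nucleotides of which the minimum lay in 10 libraries at C2278 and in 5 at C2870. At U2634 and U2843 the lowest means, -0.48 and -0.35, were 29 and 27 nucleotides downstream, and the nucleotide 27 after U2843 is C2870. Deeper troughs occurred elsewhere in 25S rRNA: at C1856 (-1.84 ± 0.49), G1321 (-1.67 ± 0.39) and G3284 (-1.49 ± 0.44, SD, n = 12), none of which is on the lists of base-modified nucleotides used here.

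**Figure D3:**
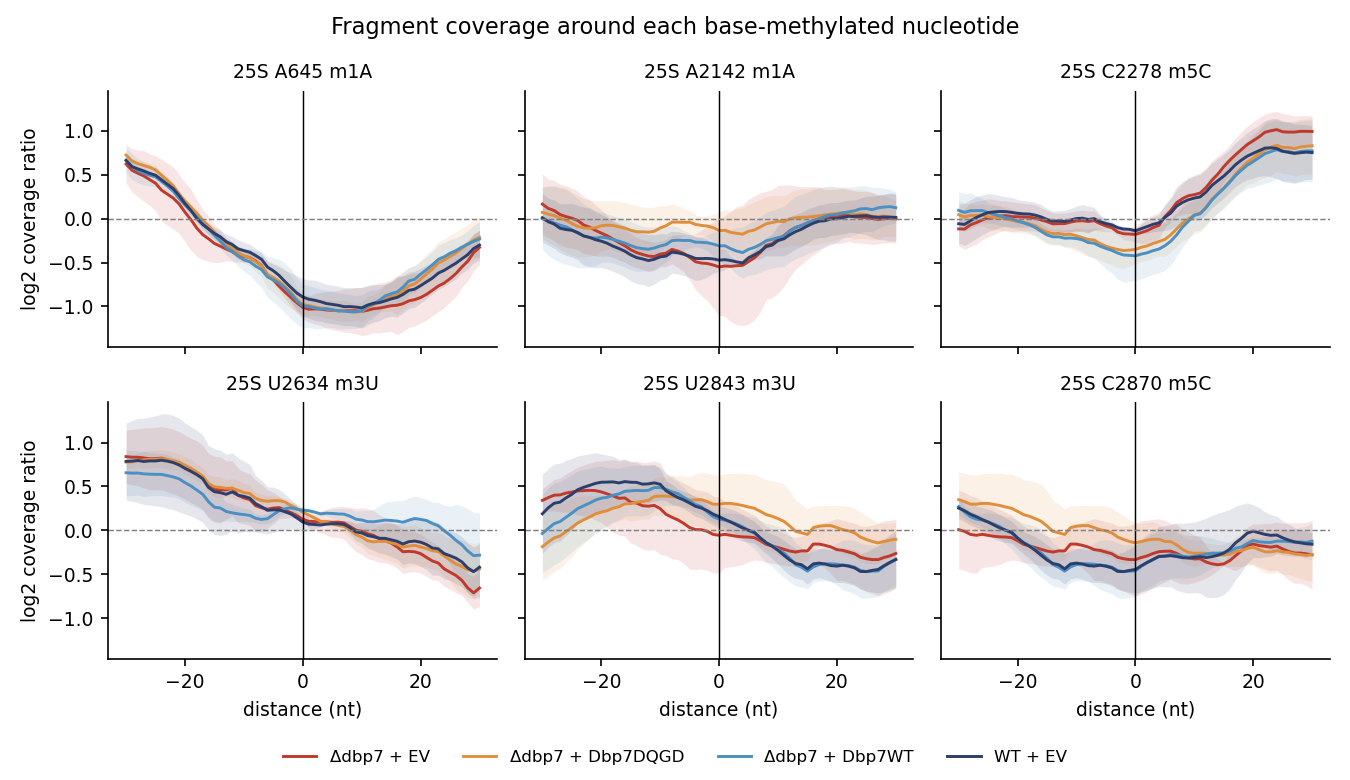
Mean log2 coverage ratio against distance in nucleotides from each base-methylated nucleotide (vertical line at 0), by group, with shading of 1 SD (n = 3). The trough near A645 has its minimum, -1.04 in the mean of all libraries, 10 nucleotides downstream.

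Windows of ends gave a further view, since most fragments that start within 20 nucleotides before a base, or stop within 20 after it, contain it. For 5′ ends, counts in the 20 rows before the nucleotide were divided by those in the 20 rows from the nucleotide on. A 5′ end on a row belongs to a fragment that starts at the next nucleotide, so the nucleotide's own row is in the divisor. For 3′ ends, counts in the 20 rows from the nucleotide on were divided by those in the 20 before. The 3′ window ratio was -0.97 ± 0.21 at A645, -0.89 ± 0.27 at C2278 and -0.67 ± 0.24 at U2634 (SD, n = 12 each), all below 0 in 12 of 12 libraries, against 18.9% of all 5116 nucleotides. The 5′ window ratio was below 0 in 12 of 12 libraries at C2278 (-0.90 ± 0.29) and A2142 (-0.64 ± 0.35), against 20.4% of nucleotides. Which window was low varied within each mark. At U2634 they pointed in opposite directions, with a 5′ window ratio of 0.72 ± 0.33, above 0 in all 12 libraries. At A645 the 5′ window ratio was only -0.33 ± 0.30 and was above 0 in 2 libraries, both Δdbp7 + EV.

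Whether the signals at the 6 nucleotides differ between cells with and without active Dbp7 was tested with edgeR's quasi-likelihood test for ends, with the flanking mean as offset, and with limma for the coverage ratio. Every nucleotide of 18S and 25S rRNA that could be tested entered each fit, and a nucleotide was called at a Benjamini-Hochberg adjusted p under 0.05. No base-methylated nucleotide was called in any comparison, and neither was a nucleotide directly next to one. For 5′ ends this was 0 of 72 tests (6 nucleotides at 3 rows each in 4 comparisons), none of them with an unadjusted p under 0.05. For 3′ ends it was 0 of 72, with 2 at an unadjusted p under 0.05, and for coverage 0 of 24, with none. These fits leave out the pairing by replicate number. With the replicate number as a block, 2 tests for 5′ ends, 8 for 3′ ends and 2 for coverage had an unadjusted p under 0.05, and again none was called.

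These counts have to be read against few calls overall. Among 5146 nucleotides tested for 5′ ends, 7 (0.136%) were called in Δdbp7 + EV against WT + EV, 3 (0.0583%) in Δdbp7 + Dbp7DQGD against Δdbp7 + Dbp7WT, 2 (0.0389%) in Δdbp7 + Dbp7WT against WT + EV and 16 (0.311%) when the 6 libraries lacking active Dbp7 were set against the other 6. Among 5148 nucleotides for 3′ ends and 4956 for coverage, 0 (0%) were called in each of the 4 comparisons. At an unadjusted p under 0.05 there were 21, 14, 214 and 28 nucleotides for 3′ ends and 42, 17, 251 and 104 for coverage, in the same order of comparisons. With the replicate number as a block there were 362, 176, 353 and 475 for 3′ ends and 265, 327, 339 and 478 for coverage, with none called. DESeq2 with the flanking means called 0, 0, 1 and 0 nucleotides for 3′ ends.

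For 5′ ends the differences at the 6 nucleotides were at most 0.32 on the log2 scale, in either direction, in every comparison. Between groups without and with active Dbp7 the 5′ end ratio differed by -0.08 (SE 0.08) at A645, -0.03 (SE 0.10) at A2142, 0.09 (SE 0.13) at C2278, 0.04 (SE 0.07) at U2634, 0.12 (SE 0.14) at U2843 and 0.04 (SE 0.12) at C2870 on the log2 scale. Over all 18 rows the differences ran from -0.15 to 0.17 in this comparison. In Δdbp7 + EV against WT + EV they ran from -0.25 to 0.32 with all libraries and from -0.17 to 0.26 without Δdbp7 + EV replicate 2. The 0.32 was at U2843, where the difference without that library was -0.02 (SE 0.12). In Δdbp7 + Dbp7DQGD against Δdbp7 + Dbp7WT the differences ran from -0.14 to 0.26. The median over all nucleotides tested was within 0.02 of 0 in each comparison. Differences in 3′ ends had SEs up to 0.47 and are less well bounded in this fit, which leaves out the pairing by replicate number. They ran from -0.39 to 0.38 in Δdbp7 + EV against WT + EV (from -0.69 to 0.44 without Δdbp7 + EV replicate 2). In Δdbp7 + Dbp7DQGD against Δdbp7 + Dbp7WT they ran from -0.23 to 0.25. With the replicate number as a block these 2 ranges were -0.40 to 0.38 and -0.18 to 0.31.

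At the m1A nucleotides the intervals of the coverage differences all included 0, also with the replicate block. At A645 the mean log2 coverage ratio was -1.01 ± 0.13 in Δdbp7 + EV and -0.89 ± 0.21 in WT + EV (SD, n = 3 each), a difference of -0.12 (95% interval -0.49 to 0.26). It was -0.98 ± 0.13 in Δdbp7 + Dbp7DQGD and -0.99 ± 0.25 in Δdbp7 + Dbp7WT, a difference of 0.02 (interval -0.36 to 0.39). With the groups joined, 6 libraries without active Dbp7 differed from 6 with it by -0.05 (interval -0.32 to 0.21), so a change of more than about 0.32 in either direction lies outside the interval. At A2142 the corresponding difference was 0.05 (interval -0.30 to 0.40) with all libraries and 0.20 (interval -0.08 to 0.47) without Δdbp7 + EV replicate 2. There, Δdbp7 + EV differed from WT + EV by -0.08 with all libraries (interval -0.57 to 0.41), by 0.22 without Δdbp7 + EV replicate 2 and by -0.32 without replicate 3.

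At the m5C and m3U nucleotides of domains IV and V the differences were of the same order. C2870, modified by Nop2, had the largest one between groups without and with active Dbp7, 0.22 (interval -0.13 to 0.56), from means of -0.33 ± 0.41 in Δdbp7 + EV, -0.14 ± 0.23 in Δdbp7 + Dbp7DQGD, -0.46 ± 0.29 in Δdbp7 + Dbp7WT and -0.45 ± 0.27 in WT + EV. Its exact permutation test over the libraries, which ignores the replicate numbers, gave p = 0.212 (two-sided, n = 6 and 6, with 0.00216 the smallest possible). Within the same-numbered plasmid pairs the ratio was higher without active Dbp7 in 3 of 3 at C2870 and likewise at A2142. This held in 2 of 3 each at A645, C2278 and U2843 and in 1 of 3 at U2634. The share over all nucleotides was not counted. At C2870 the ratio was higher by 0.03, 0.30 and 0.01 in the pairs of Δdbp7 + EV with WT + EV, which were not taken as pairs for coverage. It was higher by 0.30, 0.40 and 0.26 in those of Δdbp7 + Dbp7DQGD with Δdbp7 + Dbp7WT. With the replicate number as a block, limma's interval for the joined difference was 0.06 to 0.37 (adjusted p = 0.33), a block that includes the EV pairs. For the plasmid pairs, whose numbers do pair for coverage, the difference of 0.32 had an interval of 0.10 to 0.54 (adjusted p = 0.654 by limma). Neither difference was called. The joined difference rested in part on Δdbp7 + EV replicate 2: without it, it was 0.11 (interval -0.21 to 0.43), and Δdbp7 + EV differed from WT + EV by -0.10 in place of 0.11. The other differences in that comparison were 0.02 (interval -0.24 to 0.27) at C2278, 0.00 (interval -0.21 to 0.22) at U2634 and -0.02 (interval -0.34 to 0.30) at U2843, where it was 0.10 without Δdbp7 + EV replicate 2. U2634 had the narrowest interval. At U2843 the difference between Δdbp7 + EV and WT + EV was -0.21 with all libraries and 0.03 without Δdbp7 + EV replicate 2. Without the replicate block, the adjusted p from limma was 0.87 or above for every base-methylated nucleotide in every comparison.

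**Figure D4:**
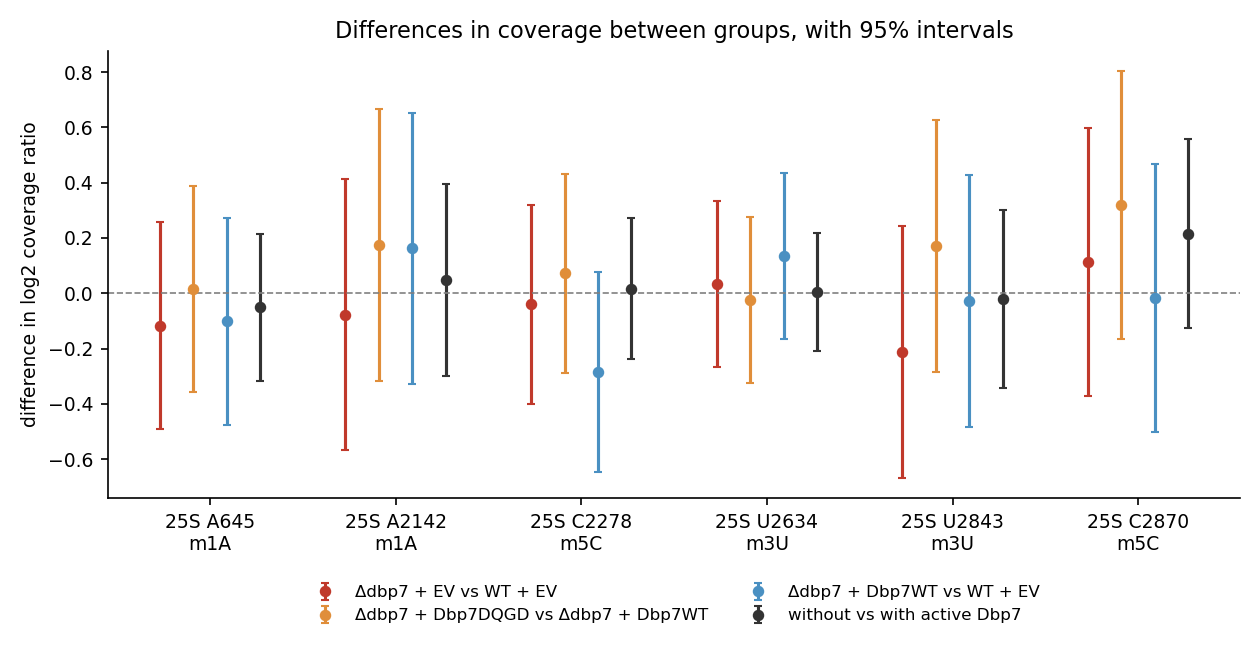
Difference in log2 coverage ratio at each base-methylated nucleotide for the 4 comparisons, with 95% intervals from limma without a replicate block. Every interval shown includes 0, and the largest difference is 0.32, at C2870 between Δdbp7 + Dbp7DQGD and Δdbp7 + Dbp7WT.

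Cells with the wild-type plasmid were also set against the wild-type strain, which carries Dbp7 from its own gene. For coverage the largest difference was -0.28 (interval -0.65 to 0.08, adjusted p = 0.87 by limma), at C2278. For ends, both tests with an unadjusted p under 0.05 in the fits without the replicate block fell in Δdbp7 + Dbp7WT against WT + EV. The 3′ end ratio of U2843 was -0.89, -0.59 and -0.33 in Δdbp7 + Dbp7WT and 0.12, -0.43 and 0.55 in WT + EV, a difference of -0.72 (SE 0.30, adjusted p = 0.989 by edgeR). Its libraries overlapped, and Δdbp7 + Dbp7DQGD, the other group with a Dbp7 plasmid, was at -0.85, -0.43 and -0.32. The other was the adenosine after U2634, with a difference of 0.72 (SE 0.31, adjusted p = 0.989 by edgeR). Strain and plasmid differ together in this comparison and cannot be told apart.

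The base-modified nucleotides of the 18S rRNA gave the same count. Of the 5 that could be tested for 5′ ends, the 6 for 3′ ends and the 3 for coverage, 0 were called in each of the 4 comparisons. For 5′ ends A1781 held only 0 to 10 counts per library, so the lack of a call there says little. The strong 3′ end deficits of U1191 and G1575 differed by -0.15 (SE 0.37) and 0.04 (SE 0.37) between groups without and with active Dbp7.

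The only nucleotides that were called close to a base methylation carry a 2′-O-methyl group, guided by box C/D snoRNAs. Among the 78 nucleotides within 6 of the base-methylated ones, edgeR called 2 for 5′ ends, C650 (5 nucleotides after A645) and A2640 (6 nucleotides after U2634). Both were called in Δdbp7 + EV against WT + EV, where 7 of all 5146 nucleotides (0.136%) were called. They were also called between groups without and with active Dbp7, where 16 of all nucleotides (0.311%) were. How many other 2′-O-methylated sites were called was not counted. The 2 calls can therefore not be set against the share among such sites elsewhere. At C650 the 5′ end count was 8.24%, 7.67% and 9.05% of the flanking mean in Δdbp7 + EV and 7.48%, 8.19% and 7.87% in Δdbp7 + Dbp7DQGD. It was 2.03%, 3.56% and 1.82% in Δdbp7 + Dbp7WT and 2.03%, 1.86% and 2.33% in WT + EV. The 6 libraries without active Dbp7 all lay above the 6 with it, by 1.83 on the log2 scale (SE 0.20, adjusted p = 0.000924). The RiboMeth-seq score of C650, which uses both ends, did not separate them fully. It was 0.899 to 0.920 in Δdbp7 + EV and 0.834 to 0.908 in Δdbp7 + Dbp7DQGD. Δdbp7 + Dbp7WT replicate 2 scored 0.871, and the other libraries with active Dbp7 scored 0.957 to 0.977. The difference was 2.01 (SE 0.29, adjusted p = 0.0141) in Δdbp7 + EV against WT + EV and 1.65 (SE 0.28) in Δdbp7 + Dbp7DQGD against Δdbp7 + Dbp7WT, where the adjusted p of 0.0638 missed the threshold and was 0.0143 without Δdbp7 + Dbp7WT replicate 2. The call in Δdbp7 + EV against WT + EV was lost without Δdbp7 + EV replicate 1 or 3 or WT + EV replicate 1 or 2 (adjusted p = 0.0684 to 0.158 by edgeR). C650 and A645 thus stood 5 nucleotides apart with a difference of 1.83 at the first and -0.08 at the second, although a difference between the 2 nucleotides was not tested. The counts at C650 were low, 10 to 46 per library.

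At A2640 the groups were less clearly apart. Its 5′ end count was 17.6%, 15% and 14% of the flanking mean in Δdbp7 + EV, 11%, 11.3% and 17.4% in Δdbp7 + Dbp7DQGD, 10.1%, 8.87% and 10.2% in Δdbp7 + Dbp7WT and 4.51%, 3.79% and 6.68% in WT + EV. The difference was 1.68 (SE 0.27, adjusted p = 0.0285) in Δdbp7 + EV against WT + EV, a call lost without any 1 of the Δdbp7 + EV libraries, Δdbp7 + Dbp7WT replicate 3 or WT + EV replicate 1 or 2. It was 0.42 (SE 0.26, adjusted p = 0.999) in Δdbp7 + Dbp7DQGD against Δdbp7 + Dbp7WT. Without and with active Dbp7 differed by 1.05 (SE 0.19, adjusted p = 0.0343), and this call was lost in 11 of the 12 fits that left out 1 library, with adjusted p from 0.0545 to 0.144; it held only without WT + EV replicate 3. For 3′ ends neither neighbour was called.

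**Figure D5:**
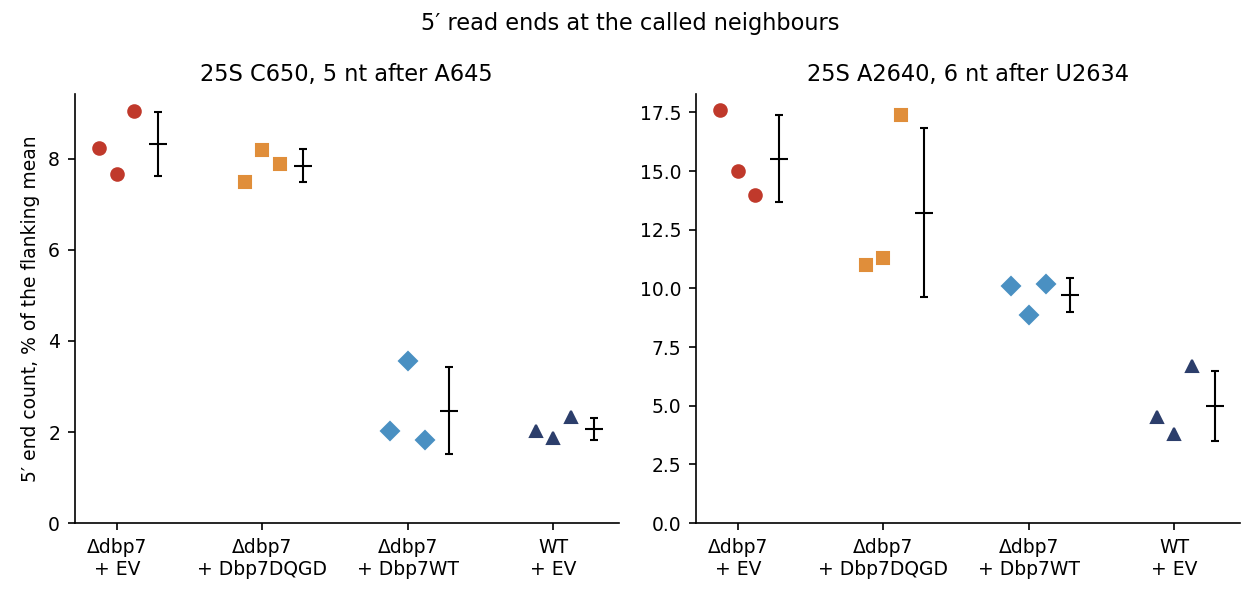
5′ end count as a percentage of the flanking mean at the 2 called neighbours, by group; points are libraries and bars the mean with its SD (n = 3). At C650 the 6 libraries without active Dbp7 lie between 7.48% and 9.05% and those with it between 1.82% and 3.56%, while at A2640 the WT + EV libraries are lowest.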

How the data were processed

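RiboMeth-seq libraries of 12 yeast total RNA samples were analysed from the tables the authors deposited. The authors hydrolysed RNA in alkali, excised fragments of 20 to 40 nt, sequenced them on an Ion Proton and, per the submitters' processing notes, used cutadapt 2.0 and Bowtie2 2.3.4.1; the mapping target was the yeast transcriptome and the build is not given in the sources used here. The deposited counts are raw 5′ and 3′ read ends per nucleotide. The deposited fraction is the RiboMeth-seq score (score C), to which a barcode correction was applied in a few cases; 36 per-sample columns of summed ends and other scores were not used, nor were the authors' group means. mRNAs of DBP7 and of the methyltransferases were not analysed here.

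Groups came from the sample titles. The 6 nucleotides, the 18S list and the rule for named nucleotides (members and their neighbouring rows, called nucleotides within 6, the 18S list, the 3 lowest coverage ratios elsewhere) were chosen with earlier results of these data known. Ends were tested with edgeR 4.0.16 where the flanking mean was at least 25 in every library, and coverage with limma 3.58.1 (R 4.3.3), over all 12 libraries with 1 mean per group; tests are two-sided. Fragments starting at nucleotide 1, taken as total 3′ minus total 5′ ends, were 0.0724% to 0.111% of 25S 3′ ends. The tests were run on data simulated at levels taken from these libraries, with each library drawn independently. The simulated data hold no pairing by replicate number, so they do not show how the tests behave with it. Same-numbered libraries deviated together for ends (correlations of 0.256 to 0.806 for 5′ and 0.442 to 0.892 for 3′ ends within the EV pair and the plasmid pair of groups), so numbers pair these groups; for coverage the plasmid pairs correlated at 0.781, 0.89 and 0.887 and were taken as pairs, and the EV pairs, at 0.725, -0.11 and 0.101, were not. Alternatives were other normalizations, DESeq2 1.42.0, other flanks, no filter, a replicate block, the compared groups alone and leaving out each library.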

Additional observations from a re-analysis of the deposited data

Results flagged for a closer look

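Of 108 groups of 6 values at and next to the base-methylated nucleotides, 9 held a library far from the other 5; chance alone gives about 1 in 20. Δdbp7 + EV replicate 2 was that library in 5 cases among the groups without active Dbp7. At 25S A2142 its log2 5′ end ratio was -0.86, against -0.36 to -0.08 in the other 5, and its 3′ end ratio -1.31, against -0.64 to -0.30. At 25S U2634 its 5′ end ratio was -0.18, against -0.02 to 0.06, and at 25S U2843 it was 1.06, against 0.08 to 0.30. At the uridine before 25S C2870 its 3′ end ratio was -1.22, against -0.01 to 0.27.

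Among the groups with active Dbp7, Δdbp7 + Dbp7WT replicate 2 had a 5′ end ratio of 1.29 at 25S C2870, against 0.99 to 1.07, and of -0.25 at the guanosine before 25S A645, against -0.33 to -0.31. WT + EV replicate 3 was at -0.56 for 5′ ends before 25S U2634, against -0.29 to -0.22, and WT + EV replicate 2 at 0.037 after it, against -0.17 to -0.12.

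In 2 of 36 cases every pair of Δdbp7 + EV and WT + EV differed one way and every pair of Δdbp7 + Dbp7DQGD and Δdbp7 + Dbp7WT the other way. These differences between sets were not tested. No chance level was worked out for this count, and the 36 cases include neighbouring rows, which are not independent. For 5′ ends after 25S C2278 the mean pair difference was -0.10 in the EV pairs and 0.15 in the plasmid pairs, a gap of -0.25. For 3′ ends at 25S U2843 it was -0.28 and 0.07, a gap of -0.35.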

How the results depend on the processing

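The count of base-methylated nucleotides called was 0 in all 222 counts under alternatives (1 for each measure, setting and comparison), the replicate block included, and the smallest adjusted p among them was 0.106. With the replicate block, tests with an unadjusted p under 0.05 numbered 2 for 5′ ends, 8 for 3′ ends and 2 for coverage, both of these at C2870. Of 432 coverage differences under alternatives, 34 had the other sign, all uncalled, and 3 moved by at least 1 SE, each without 1 Δdbp7 + EV library. Counts over all nucleotides depended more on the fit: for 5′ ends the comparison of groups without against with active Dbp7 called 6 to 132 nucleotides, 64 with the replicate block, Δdbp7 + EV against WT + EV 2 to 11, Δdbp7 + Dbp7DQGD against Δdbp7 + Dbp7WT 0 to 9 and Δdbp7 + Dbp7WT against WT + EV 0 to 18; for 3′ ends at most 13. The call at C650 between groups without and with active Dbp7 held in 18 of 18 alternatives (adjusted p 2.44e-06 to 0.0279). In Δdbp7 + EV against WT + EV, C650 was called in 13 of 19 and A2640 in 9 of 19 (largest adjusted p 0.561 for both, with library size in place of the flanking mean); both held with the replicate block. C650 lost this call without Δdbp7 + EV replicate 1 or 3 or WT + EV replicate 1 or 2 (adjusted p 0.0684 to 0.158). A2640 lost it without any Δdbp7 + EV library, Δdbp7 + Dbp7WT replicate 3 or WT + EV replicate 1 or 2 (0.057 to 0.308), and with 12 unweighted nucleotides (0.148) or the compared groups alone (0.108).

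Of 66 mean log2 ratios against flanks under alternatives, 12 moved by at least 1 SD. Without 2′-O-methylated flanks the 5′ end ratio was -0.14 at A645 and 0.14 at C2278, and the 3′ end ratio at C2278 -0.10. With 12 unweighted nucleotides C2870 was at 0.78 for 5′ and 0.17 for 3′ ends. With windows of 15 the 5′ window ratio was -0.48 at C2278, 0.66 at U2843 and 0.25 at C2870, and the 3′ window ratio -0.75 at A645; with windows of 25 the 3′ window ratio at C2278 was -0.60. With coverage flanks at 41 to 80 nucleotides C2278 was at -0.036 and U2634 at 0.44. A filter on flanking coverage of 1000 removed no nucleotide.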
